A study of Mus musculus with 272 samples.

Results

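The 10 genes described here encode the Myc and Max network of transcription factors, namely *Myc*, *Mycn*, *Mycl*, *Max*, *Mxd1*, *Mxd3*, *Mxd4*, *Mxi1*, *Mnt* and *Mlx*. They were chosen by gene name from the 21938 protein-coding genes of GENCODE M21 on mm10. The rule uses no measured value, but earlier results of these data were known when the genes, pathway lists and marker lists were chosen. The study edited the genome of skeletal muscle stem cells (MuSCs) in living mice, and the chromatin of MuSCs was mapped beside it. Of its 272 samples, 8 are used here, with 2 replicates of each kind. ATAC-seq reads open chromatin, and ChIP-seq was done for 3 histone marks. H3K4me3 lies at promoters, H3K27ac at promoters and enhancers in use, and H3K27me3 at genes repressed by Polycomb. In the study's methods, MuSCs are GFP+ cells sorted from hindlimb muscle of Pax7Cas9 mice. These mice carry a Pax7Cre allele and a Cre-dependent Cas9-EGFP knockin at Rosa26. Cas9 and GFP thus appear in cells where *Pax7* drove Cre, and the paper states that myonuclei express Cas9 too. The methods of ATAC-seq and ChIP-seq do not name the mice again. Both alleles are therefore taken, and not stated, to be shared by all 8 libraries. The labels of these libraries name skeletal muscle as the tissue and give neither an age nor an sgRNA, and nothing says that the replicates came from separate animals, so that the spread between them may be technical. Every library comes from the same kind of cell, so that no condition is compared and no test between groups is made.

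The peaks were called by the authors in each library separately, and each is given with its fold enrichment, meaning its signal relative to the local background, and with its q-value on the -log10 scale. Read numbers are not part of the lists and depth is unknown, so that a peak that is not listed was not detectable at that depth. Promoters here reach 3 kb to both sides of each annotated start, and a gene is counted for a feature when both replicates list a promoter peak. A promoter with peaks of both active marks and of ATAC-seq in both replicates, and with H3K27me3 in neither, is called open active. Percentiles and medians of a replicate are taken over all protein-coding genes with a promoter peak of that feature in that replicate, and folds are given for replicate 1 and then replicate 2. Of the marker genes of MuSCs, 12 of 13 had an open active promoter, among them *Pax7* with H3K4me3 of 19 and 12.6 fold. Of all protein-coding genes, 44.4% had such a promoter. Of the markers of other cells of muscle, 3 of 10 fibro-adipogenic, 1 of 10 endothelial, 1 of 9 blood and 2 of 10 myofibre genes had one. The myofibre gene *Mylpf* was among these, with H3K4me3 of 36.1 and 26.5 fold, above *Pax7*. These lists come from a mixed population, in which fewer cells with a mark and less of the mark per cell cannot be told apart. ATAC-seq replicate 1 stood apart. Outside promoters, it listed 8298 peaks under 150 bp wide with a fold of at least 10, and 4.47% of them overlapped a peak of replicate 2. Of its 9959 wider peaks of that fold, 96.7% did. None of the network genes had such a narrow and strong peak at its own promoter, and the counts below require both replicates unless stated otherwise.

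Myc, N-Myc and L-Myc are basic helix-loop-helix leucine zipper proteins that bind DNA as dimers with Max at E-boxes and recruit coactivators with histone acetyltransferase activity. Max also pairs with Mxd1, Mxd3, Mxd4, Mxi1 and Mnt, which bind the same E-boxes and recruit Sin3 corepressors with histone deacetylases. Mlx is a Max-like protein that pairs with Mxd1, Mxd4 and Mnt and with the glucose-responsive factors Mlxip and Mlxipl. Myc is known for driving cell growth and division, while the Mxd proteins are best known from cells that leave the cell cycle, and MuSCs of resting muscle are held outside the cell cycle until injury.

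The sequences before the start sites are shown first, because the network acts through the E-box and some of its own genes carry one. RefSeq promoter windows of GRCm38.p6, from 250 bases before to 50 bases after a start, were given for 9 of the 10 genes, in 11 windows, and *Myc* had no entry. The canonical E-box CACGTG, which reads the same on both strands, was found in the windows of *Max*, *Mnt*, *Mxd4* and *Mlx*. It occurred in 7.15% of all 32851 windows and in 10.5% of the 13090 windows that overlap H3K4me3 peaks of both replicates. In the lines below, the 250 bases before the start and the next 10 are printed 5′ to 3′ on the strand of the gene, with the E-box in capitals.
Max: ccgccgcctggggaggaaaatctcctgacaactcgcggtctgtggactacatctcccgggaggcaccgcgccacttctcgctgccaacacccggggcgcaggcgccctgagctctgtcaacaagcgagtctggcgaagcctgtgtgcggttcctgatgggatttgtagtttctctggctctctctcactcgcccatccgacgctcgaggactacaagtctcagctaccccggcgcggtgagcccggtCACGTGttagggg
Mnt: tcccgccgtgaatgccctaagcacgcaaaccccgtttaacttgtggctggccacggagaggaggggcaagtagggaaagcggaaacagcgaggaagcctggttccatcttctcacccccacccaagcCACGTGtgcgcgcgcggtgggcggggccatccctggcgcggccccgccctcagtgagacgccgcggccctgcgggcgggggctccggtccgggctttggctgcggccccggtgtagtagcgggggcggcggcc
Mxd4: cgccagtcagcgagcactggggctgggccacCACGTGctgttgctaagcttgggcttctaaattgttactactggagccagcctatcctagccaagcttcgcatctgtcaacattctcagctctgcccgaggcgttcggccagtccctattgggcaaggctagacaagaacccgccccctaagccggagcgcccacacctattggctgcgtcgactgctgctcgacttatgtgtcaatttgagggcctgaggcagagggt
Mlx: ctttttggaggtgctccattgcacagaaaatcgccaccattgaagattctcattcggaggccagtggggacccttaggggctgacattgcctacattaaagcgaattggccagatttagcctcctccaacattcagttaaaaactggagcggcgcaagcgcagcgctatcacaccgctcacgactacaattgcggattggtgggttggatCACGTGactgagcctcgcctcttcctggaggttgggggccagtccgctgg
These runs lie at chr12:76962239-76962498 on the minus strand for *Max*, at chr11:74830674-74830933 on the plus strand for *Mnt*, at chr5:34187701-34187960 on the minus strand for *Mxd4* and at chr11:101087040-101087299 on the plus strand for *Mlx*. The E-box of *Max* begins at -3 and spans the RefSeq start itself. That of *Mlx* begins at -40, that of *Mnt* at -123 and that of *Mxd4* at -219, counted from the RefSeq start. GENCODE starts, used for the peaks, can differ. The outermost one of *Max* is at 76962201, downstream of its E-box. All 4 lay inside ATAC-seq peaks of both replicates. The E-box of *Mxd4* lay 10 bp from the summit of the strongest ATAC-seq peak in replicate 1 and 37 bp in replicate 2, and outside the H3K27ac peaks of both. The distances to that summit were 95 and 30 bp for *Mlx*, 241 and 37 bp for *Max* and 487 and 474 bp for *Mnt*. The E-boxes of *Max*, *Mnt* and *Mlx* lay inside H3K4me3 and H3K27ac peaks of both replicates.

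*Mycn* is shown next, because its window held motifs of another kind. The E2F motifs TTTGGCGC and TTTCGCGC, known from promoters of genes used when cells enter S phase, were found in 0.514% and 0.323% of all windows and, among the network genes, in that of *Mycn*. They are in capitals, and the first run of capitals holds a TTTGGCGC match and a TTTCGCGC match, on the opposite strand, that overlap each other.
Mycn: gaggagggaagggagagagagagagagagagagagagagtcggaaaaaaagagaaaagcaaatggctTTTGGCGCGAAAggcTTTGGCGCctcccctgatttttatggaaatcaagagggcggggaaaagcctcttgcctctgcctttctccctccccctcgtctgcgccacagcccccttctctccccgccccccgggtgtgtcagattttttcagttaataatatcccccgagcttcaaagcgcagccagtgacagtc
This run lies at chr12:12941827-12942086 on the minus strand. The matches begin at -183, -179 and -168 from the RefSeq start. Only the last overlapped ATAC-seq peaks of both replicates, lying wholly inside that of replicate 1 and in part inside that of replicate 2. The GC box GGGCGG was found in the windows of 7 of the 9 genes and in 35.7% of all windows, or 69.5% of those with H3K4me3. The CCAAT box was found in those of *Mxd1*, *Mxd4* and *Mlx* and in 37.4% of all windows. The E-box CAGCTG of myogenic factors, the AP-1 site TGANTCA, the ETS site CCGGAAG, the cyclic AMP response element TGACGTCA and GCATGCGC, part of the NRF1 site, had no match in the network windows and were found in 16.3%, 7.81%, 8.86%, 1.79% and 2.71% of all windows. Both strands were searched, and a match is a run of letters and not a measured site of binding. The median ratio of observed to expected CpG was 0.731 over the network windows, 0.384 over all windows and 0.794 over those with H3K4me3.

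Of the 10 network genes, 10 had ATAC-seq and 10 had H3K4me3 promoter peaks in both replicates, where 67.8% and 60.8% of all protein-coding genes did. H3K27ac was found in both replicates at 8 of 10, against 46.6% of all genes, and the exceptions were *Mycn* and *Mycl*. H3K27me3 was found at 0 of 10 in either replicate, against 4.81% of all genes with it in both. An open active promoter was thus found at 8 of 10, against 44.4% of all genes. The network genes had a median of 4.5 annotated starts and 10.9 kb of promoter window each, and all protein-coding genes 3 starts and 8.82 kb, so that a longer stretch could hold a peak.

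**Figure D1:**
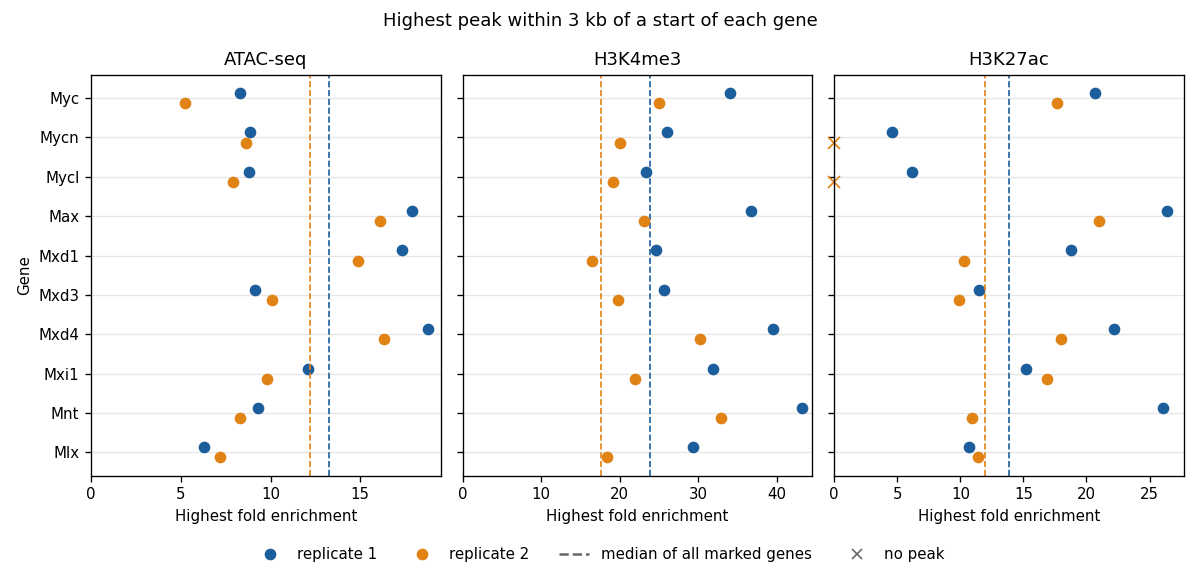
Highest fold enrichment of any promoter peak (x axis, no unit) for each network gene (y axis) in both replicates of ATAC-seq, H3K4me3 and H3K27ac. Dashed lines mark the median over all protein-coding genes with such a peak in that replicate, and a cross marks a gene with no peak. *Mycn* and *Mycl* have H3K27ac in replicate 1 only, and 7 of 10 genes lie left of the ATAC-seq medians in both replicates.

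*Myc* encodes the founding member of the family and lies on chromosome 15 at 61985391 to 61990374, on the plus strand. Its H3K4me3 formed 1 unbroken peak in each replicate, 6682 bp wide with a fold of 34.1 in replicate 1 and 6381 bp wide with a fold of 25 in replicate 2. It ran from -1834 to 4847 bp and from -1767 to 4613 bp of the outermost start, and so over 97.3% and 92.6% of the length of the gene. In covered length it stood above 99.1% and 99.5% of all genes with H3K4me3, and in fold above 79.9% and 78.9%. H3K27ac covered 66.9% and 59.4% of the gene, with folds of 20.7 and 17.7. The *Myc* gene was therefore under promoter marks for most of its length in both replicates. Its ATAC-seq peaks were many and low in fold in comparison. There were 8 promoter peaks in replicate 1 and 4 in replicate 2, which covered 1766 and 1963 bp, more than in 96.4% and 96.9% of genes. The highest folds of 8.31 and 5.21 stood above 18.1% and 6.04% of all genes with ATAC-seq promoter peaks. The peaks with these folds had a -log10 q of 102 and 46 and lay at the first group of starts in both replicates.

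*Mycn* encodes N-Myc and lies on chromosome 12 at 12936093 to 12941914, on the minus strand. Its H3K4me3 was also broad, at 4960 bp in replicate 1 and 4965 bp in replicate 2, above 96.8% and 98.6% of genes. The folds of 26 and 20 stood above 56.3% and 60.2%. H3K27ac was not listed in replicate 2, and the peak of replicate 1 was 594 bp wide with a fold of 4.6 and a -log10 q of 4.42. A wide H3K4me3 domain thus stood with little or no detectable H3K27ac. The highest ATAC-seq peak, with folds of 8.88 and 8.65, had its summit at -678 and -712 bp from the nearest start, and a second peak, with folds of 8.14 and 6.63, lay at the start itself.

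*Mycl* encodes L-Myc and lies on chromosome 4 at 122995652 to 123002485, on the plus strand. Its H3K4me3 had folds of 23.3 and 19.2 and covered 2894 and 2100 bp. H3K27ac had a fold of 6.13 and a -log10 q of 8.09 in replicate 1 and no peak in replicate 2. ATAC-seq folds were 8.81 and 7.92. Of all 13328 genes with H3K4me3 in both replicates, 76% had H3K27ac in both and 4.82%, or 643 genes, had it in replicate 1 only, as *Mycn* and *Mycl* did. The H3K4me3 folds of these 643 genes had medians of 15.28 and 11.22, and those of the genes with H3K27ac in both had medians of 28.18 and 20.32. The folds of *Mycn* and *Mycl* lay between these medians in both replicates. The H3K27ac list of replicate 1 is the longer, with 24209 peaks against 18584. Shortening it to the same number left the count at 8 of 10. This could not add peaks to replicate 2, and so it does not show whether list length or depth lies behind the missing peaks.

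*Max* encodes the shared partner and lies on chromosome 12 at 76937269 to 76962201, on the minus strand. Its H3K27ac was the highest of the network in both replicates, with folds of 26.4 and 21, above 85.7% and 83.7% of genes with the mark. H3K4me3 had folds of 36.7 and 23.1, and ATAC-seq 17.9 and 16.1. *Max* was therefore above the median in each of these features and replicates. It shared this with *Mxd4* alone among the 10 genes.

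The partners of Max that recruit corepressors differed from each other. *Mxd4*, on chromosome 5 at 34173883 to 34187720 on the minus strand, had H3K4me3 folds of 39.5 and 30.3, H3K27ac folds of 22.2 and 18, and ATAC-seq folds of 18.8 and 16.3. Its ATAC-seq fold was the highest of the network in both replicates. *Mxd1*, on chromosome 6 at 86647042 to 86669161 on the minus strand, was open to a like degree, with ATAC-seq folds of 17.3 and 14.9. Its H3K4me3 folds of 24.6 and 16.5 stood above 51.8% and 45.8% of genes, and its H3K27ac folds were 18.8 and 10.3. *Mxd3*, on chromosome 13 at 55325168 to 55329823 on the minus strand, had ATAC-seq folds of 9.13 and 10.1, H3K4me3 folds of 25.7 and 19.8 and H3K27ac folds of 11.5 and 9.93. Mxd3 is the member of its family known from cells in S phase, and its H3K27ac had the lowest mean percentile of the 8 genes with the mark in both replicates, at 38.3, without being separated from *Mlx* at 40.8.

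*Mnt* encodes the Max partner that is found in most cell types, and lies on chromosome 11 at 74830920 to 74845725 on the plus strand. Its H3K4me3 was the highest of the network, with folds of 43.2 and 32.9, above 95.3% and 95.5% of genes. H3K4me3 covered 5434 and 4784 bp and H3K27ac 5021 and 4511 bp. The H3K27ac fold was 26.1 in replicate 1 and 10.9 in replicate 2, a ratio of 2.4 and the largest ratio between replicates of any network gene and feature with a peak in both. In the order of H3K27ac, *Mnt* stood above 85.1% of genes in replicate 1 and 43.5% in replicate 2, so that its place is not settled by these data. Its ATAC-seq folds were 9.3 and 8.3.

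*Mxi1*, on chromosome 19 at 53310518 to 53375810 on the plus strand, is the longest gene of the network and has 9 annotated starts. H3K4me3 was present at separate groups of its starts. The peak at the outer starts was 4417 and 4263 bp wide with folds of 30 and 22, and the peak at the group that begins at 53329413 was 1326 and 1123 bp wide with folds of 31.9 and 18.1. The inner peak was the higher in replicate 1 and the outer peak in replicate 2. H3K27ac had folds of 15.2 and 16.9 at the outer starts and 9.96 and 8.83 at the inner group. ATAC-seq was higher at the inner group, with 12.1 and 9.83 against 8.12 and 7.2 at the outermost start. *Mlx*, on chromosome 11 at 101087277 to 101092207 on the plus strand, had the narrowest H3K4me3 of the network. It was 1227 and 944 bp wide, with folds of 29.3 and 18.4, and H3K27ac had folds of 10.7 and 11.4. ATAC-seq had folds of 6.3 and 7.2 and covered 402 and 327 bp, the least of the 10 genes in both replicates.

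**Figure D2:**
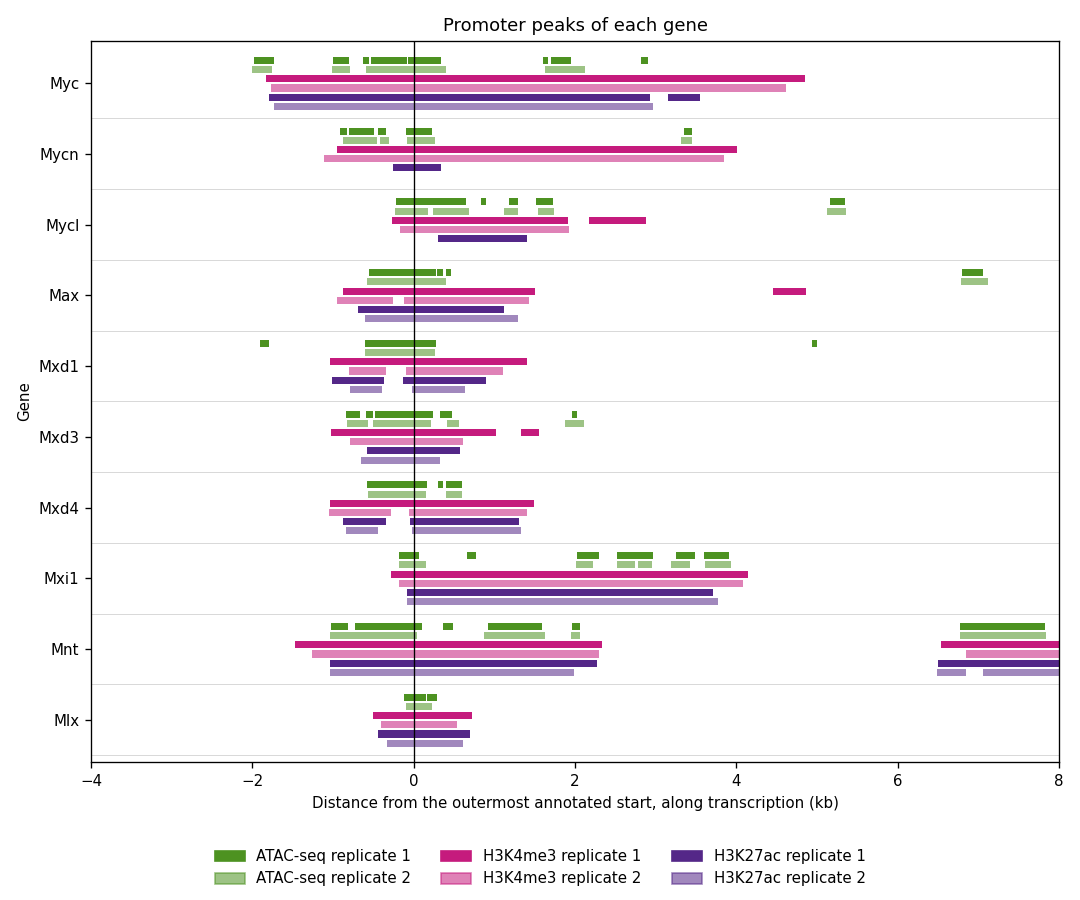
Promoter peaks of each network gene in both replicates, by distance from its outermost annotated start along transcription (x axis, kb), with upstream to the left. The peaks at the inner starts of *Mxi1*, from 18724 bp, and the single H3K27ac peak of *Max* at 20888 bp lie beyond the axis. *Myc* and *Mycn* carry the longest unbroken H3K4me3 peaks, and H3K27ac is split just upstream of the start in *Mxd1* and *Mxd4*.

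Height and length of H3K4me3 ordered the genes differently. By the mean percentile of the fold, the order was *Mnt*, *Mxd4*, *Myc*, *Max*, *Mxi1*, *Mlx*, *Mycn*, *Mxd3*, *Mycl* and *Mxd1*. *Mnt* was separated from *Mxd4*, *Mxd4* from *Myc*, and *Mxi1* from *Mlx*, in that both replicates of the former lay above both of the latter. No other neighbours in this order were separated in that way. By covered length, *Myc*, *Mxi1*, *Mnt* and *Mycn* lay above 96.8% of genes or more in both replicates, and *Mlx* lay above 24% and 20.9%. The sum over *Mxi1* and *Mnt* includes peaks at separate starts, while those of *Myc* and *Mycn* are 1 peak each.

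**Figure D3:**
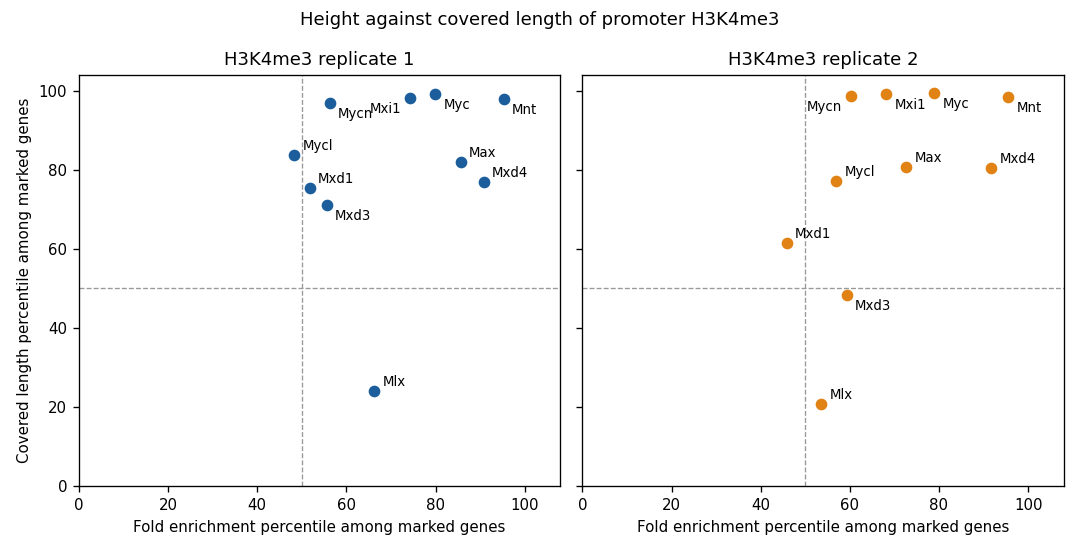
H3K4me3 promoter peaks of the network genes in replicates 1 and 2, by the percentile of the highest fold (x axis) and of the covered length (y axis) among all protein-coding genes with such a peak, with dashed lines at 50. *Myc*, *Mycn*, *Mxi1* and *Mnt* sit at the top in both replicates, and *Mlx* sits lowest at 24 and 20.9.

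For H3K27ac the order of the 8 genes with the mark in both replicates was *Max*, *Mxd4*, *Myc*, *Mnt*, *Mxi1*, *Mxd1*, *Mlx* and *Mxd3*. *Max* was separated from *Mxd4* and *Mxd4* from *Myc*, and the others were not separated from the next gene. For ATAC-seq the order was *Mxd4*, *Max*, *Mxd1*, *Mxi1*, *Mxd3*, *Mycn*, *Mnt*, *Mycl*, *Mlx* and *Myc*. *Mxd4*, *Max* and *Mxd1* stood above 68.8% of genes or more in both replicates, and the other 7 genes stood above 41.7% at most. The median ATAC-seq fold of the 10 genes was 9.21 and 9.24, against 13.3 and 12.2 over all genes with such peaks. Median H3K4me3 folds were 30.6 and 21.04 for the network and 23.9 and 17.6 over all genes with the mark. Over the genes, the folds of the replicates had a Spearman correlation of 0.927 for ATAC-seq (n = 10), 0.891 for H3K4me3 (n = 10) and 0.571 for H3K27ac (n = 8). These points share their libraries. The fold was higher in replicate 1 for 10 of 10 genes in H3K4me3, by a median ratio of 1.34.

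At *Mxd1* and *Mxd4*, H3K27ac was split into peaks on either side of a gap just upstream of the start in both replicates. For *Mxd1* the gap was 229 bp long, from -366 to -138 bp, in replicate 1, and 366 bp long, from -391 to -26 bp, in replicate 2. For *Mxd4* it was 295 bp long, from -345 to -51 bp, and 419 bp long, from -442 to -24 bp. Both gaps of each gene held the summit of its strongest ATAC-seq peak in both replicates. H3K4me3 had a gap just upstream of the start in *Mxd1*, *Mxd4* and *Max* in replicate 2 only. *Mxd1* and *Mxd4*, with *Max*, are also the genes with the highest ATAC-seq folds of the network. The E-box of *Mxd4* printed above lies in its H3K27ac gap.

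Starts within the genes were marked in part. *Mnt* has an internal coding start at 74837468, where ATAC-seq had folds of 8.05 and 8.06, H3K4me3 19.9 and 11 and H3K27ac 12.4 and 7.36. At a noncoding transcript of *Max* that starts at 76954409, ATAC-seq had folds of 8.34 and 6.64 within 1 kb, and no histone peak was listed there. The same held for a start of *Mxi1* at 53370023, with 3.74 and 4.86. The starts of *Max* at 76953169 and 76939994, *Mxd1* at 86663105, *Mxd4* at 34184370 and 34175336, *Mnt* at 74836326 and *Mlx* at 101089662 had no peak of any feature within 1 kb. Of these, that of *Mxd1* alone belongs to a transcript annotated as coding.

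The distance to the nearest H3K27me3 peak differed widely between network genes, and it was not set beside that of all genes. The nearest peak to any start of *Myc* was 2.93 Mb away in both replicates, and that of *Mycn* was 3.36 Mb away in replicate 1 and 1.21 Mb in replicate 2. *Mxi1* had its nearest peak at 675 kb in both replicates, and *Mxd1* at 467 and 466 kb. For *Max* these distances were 533 and 227 kb, for *Mnt* 335 and 220 kb and for *Mycl* 183 and 105 kb. They were 98.8 and 98 kb for *Mxd4*, 90.7 and 49.5 kb for *Mxd3*, and 86.9 and 7.55 kb for *Mlx*. Within 50 kb of the genes there were 0 H3K27me3 peaks in replicate 1 and 2 in replicate 2. Of these, the peak near *Mlx* lay 7.55 kb upstream in *Hsd17b1* with a fold of 3.08 and a -log10 q of 0.451. The peak near *Mxd3* lay 49.5 kb upstream in *Rgs14* with a fold of 3.76 and a -log10 q of 1.51. The H3K27me3 lists were cut at a p-value and the others at a q-value of 0.05, which the peak near *Mlx* would not have passed.

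Within each gene and 50 kb either side, peaks that overlap no promoter of any annotated gene are called distal. There were 91 distal ATAC-seq peaks around the 10 genes in replicate 1, of which 57 overlapped a peak of replicate 2. Replicate 2 had 54, of which 48 overlapped a peak of replicate 1. Shared peaks are counted on replicate 1 unless stated otherwise. Of the 57, 32 were intergenic, 23 intronic and 2 overlapped an exon. At least 1 such shared peak was found around 9 of 10 genes, against 68.3% of all protein-coding genes. *Mxi1* had 13, or 7.86 per 100 kb, and *Mycl* had 8, or 7.49 per 100 kb, which stood above 93.8% and 92.7% of all genes. Counted on replicate 2, *Mxi1* had 10 and *Mycl* 7. The median over all genes was 1.58 per 100 kb. *Mxd3* had none, and all of its surrounding ATAC-seq peaks lay at the promoters of *Rab24*, *Prelid1*, *Lman2* and *Rgs14*.

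Distal H3K27ac was sparse. Of 9 such peaks in replicate 1, 4 were found in replicate 2, and they lay around 3 of 10 genes, against 17% of all genes. Near *Mycn*, an intergenic peak lay upstream at -31.4 kb, from 12973355 to 12973604, in replicate 1, with a fold of 3.96, and at -31.7 kb, from 12973597 to 12973802, in replicate 2, with a fold of 4.78. These share only 8 bp, and the ATAC-seq peak beside them had folds of 9.55 and 11.2. Near *Mycl*, 2 peaks lay in introns of *Trit1*, which encodes a tRNA-modifying enzyme, at 32.6 and 33.5 kb downstream, with folds of 5.75 and 6.13 in replicate 1 and 4.34 and 6.25 in replicate 2. The strongest ATAC-seq peak beside them had folds of 12.9 and 13.9. *Mycn* and *Mycl*, which lacked promoter H3K27ac in replicate 2, were thus among the 3 genes with distal H3K27ac in both. Near *Mlx*, a peak lay in an intron of *Atp6v0a1*, which encodes a subunit of the vacuolar proton pump, with a fold of 6.51 in replicate 1 and 2 peaks with a fold of 4.22 each in replicate 2. These distal peaks were weak, and with a -log10 q of at least 5 in both replicates only 1 of the 4 was left.

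**Figure D4:**
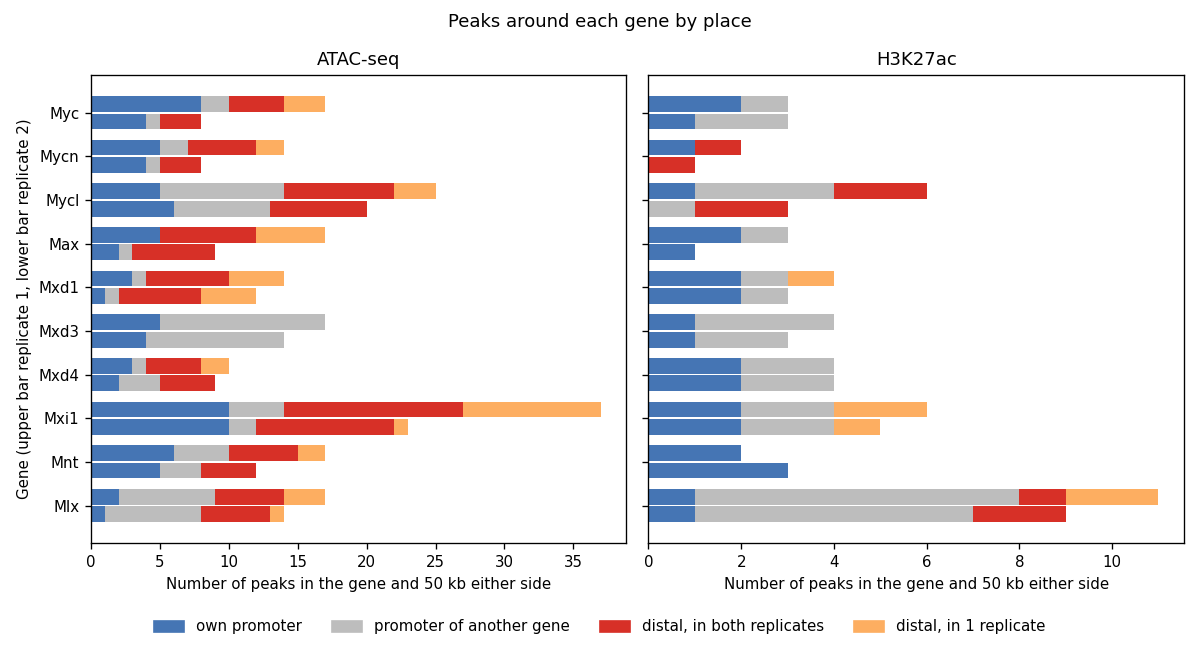
Number of ATAC-seq and H3K27ac peaks (x axis) in each network gene and 50 kb either side, with replicate 1 above replicate 2, by place. Distal peaks overlap no annotated promoter. Distal H3K27ac found in both replicates is limited to *Mycn*, *Mycl* and *Mlx*, while distal ATAC-seq found in both lies around all genes but *Mxd3*.

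No distal H3K27ac peak was listed within 50 kb of *Myc* in either replicate. The histone peaks outside the *Myc* promoter lay from 47.2 kb downstream at the start of *Pvt1*, a noncoding RNA gene, where H3K4me3 had folds of 20.8 and 12.4 and H3K27ac 18.3 and 17.2. Distal ATAC-seq peaks of *Myc* found in both replicates lay 1.59, 8.57, 38.1 and 38.4 kb downstream in replicate 1, with folds of 3.65 to 8.3. Around *Mxi1*, H3K4me3 was found away from promoters in both replicates. It lay in an intron, at 53359458 to 53360748 in replicate 1 with a fold of 5.29 and at 53359671 to 53360446 in replicate 2 with a fold of 3.14, and at 48.7 and 49 kb downstream with folds of 3 and 2.73, where the peaks share only 2 bp. At the intronic place H3K27ac was listed in replicate 1 only, with a fold of 3.83.

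The strongest distal ATAC-seq peaks differed between the replicates. In replicate 1, those around *Myc*, *Max*, *Mxd4* and *Mxi1* had folds of 30.3, 20.5, 32.7 and 62.9, were all under 150 bp wide, and had no counterpart in replicate 2. In replicate 2, the strongest distal peaks around the same genes had folds of 6.48, 11.5, 13.3 and 13.3, and all 4 were also found in replicate 1. Of the distal peaks of replicate 1 with a fold of at least 10, 7 were under 150 bp wide and 0 of them were found in replicate 2, while 10 were wider and all 10 were found there. The narrow kind is that noted above for the whole list, and its part in the larger number of peaks of replicate 1 was not tested.

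**Figure D5:**
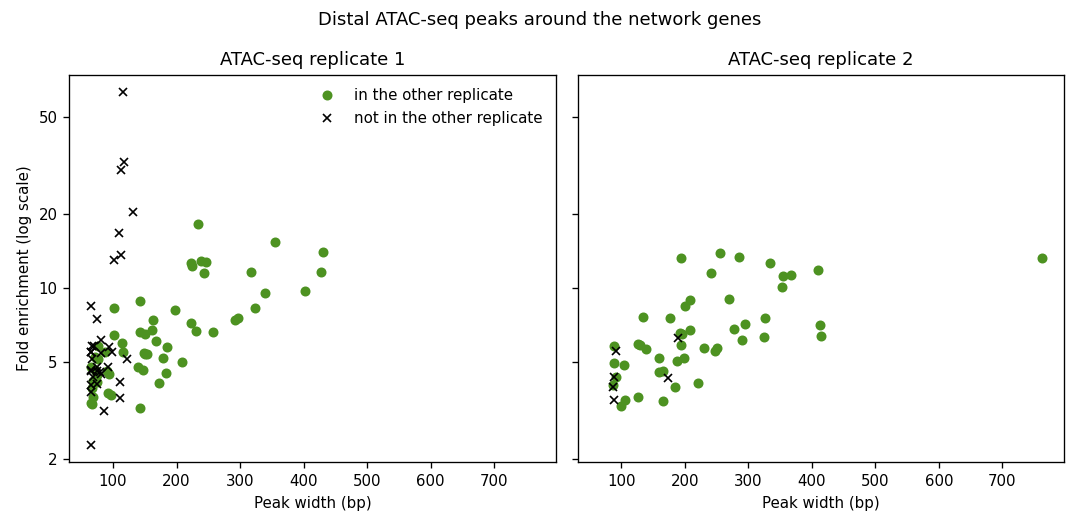
Distal ATAC-seq peaks around the 10 network genes, by width (x axis, bp) and fold enrichment (y axis, log scale), in replicates 1 and 2. Crosses mark peaks with no overlap in the other replicate. In replicate 1, 7 crosses under 150 bp wide stand at a fold of 10 or more, up to 62.9, and replicate 2 has none there.

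Other genes of the pathway were described from lists of 45 genes. All 45 had ATAC-seq and all 45 H3K4me3 promoter peaks in both replicates, and 42 had an open active promoter, against 44.4% of all protein-coding genes. All 10 Myc coactivators and partners had one. Among them, the methyltransferase subunit *Wdr5* had H3K4me3 folds of 38.9 and 33.9, and the Myc partner *Zbtb17* (Miz-1) 42.9 and 33.1. All 5 genes of the corepressors used by Mxd proteins had one, among them the deacetylases *Hdac2* with 41.8 and 35.2 and *Hdac1* with 38.9 and 33.9, and *Ncor1* with 32.7 and 30.7. All 6 genes of Myc turnover had one, among them the ubiquitin ligase subunits *Fbxw7* with 44.7 and 27.3 and *Skp2* with 38.2 and 26.

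Of the other network members, *Mlxip* and *Mga* had open active promoters, with H3K4me3 folds of 38.1 and 27.7 and of 11.2 and 8.67. *Mlxipl*, which encodes the carbohydrate response factor ChREBP, did not. It had H3K4me3 folds of 14.9 and 9.73, no H3K27ac in either replicate and an H3K27me3 peak of 4.11 fold in replicate 2. Of 21 known Myc target genes, 19 had an open active promoter, among them the translation factor *Eif4e* with H3K4me3 folds of 53.4 and 38.3, nucleolin (*Ncl*) with 47.9 and 35.2 and spermidine synthase (*Srm*) with 35 and 34.3. The exceptions were *Ccnd2*, which encodes cyclin D2, and *Tert*, the catalytic subunit of telomerase. *Ccnd2* had H3K4me3 folds of 9.33 and 7.01 together with H3K27me3 of 5.63 and 6.16 and no H3K27ac. *Tert* had H3K4me3 folds of 5.21 and 4.01, with neither H3K27ac nor H3K27me3.

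Around the network genes, 25 protein-coding genes had an annotated start within 50 kb. Of these, 17 had an open active promoter, against 44.4% of all genes. That call takes in every start of the neighbour, also those beyond 50 kb. For *Nsd1*, *Mettl16*, *Atp6v0a1*, *Gmcl1* and *Fntb*, no H3K4me3 promoter peak was listed within 50 kb. Fewer than 17 were thus open active within that distance. *Mycl* lies beside *Trit1*, which had one, and *Mfsd2a*, which had H3K4me3 in both replicates and no H3K27ac in either. The H3K4me3 folds at *Trit1* were 31.8 and 22.4, above those of *Mycl* itself. *Mlx* had 7 such neighbours, more than any other network gene, and the promoter of *Coasy* lay closest, with 3382 bp between starts. *Myc* and *Mycn* had no protein-coding neighbour that starts within 50 kb.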

How the data were processed

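Per the submitters' processing notes and the study's methods, reads were trimmed (Trim Galore 0.6.10) and mapped to mm10 (BWA 0.7.17-r1188), duplicates, poorly mapped reads and blacklisted regions were taken out (SAMtools 1.5 and other tools), the transposase offset of ATAC-seq reads was corrected (deepTools 3.5.5), and the authors called peaks for each library on its own (MACS2 2.2.6). The control used by MACS2 for these lists is not given in the sources used here. The deposited lists hold, for each peak, a score, the authors' fold enrichment as a ratio over the local background, and -log10 p-values and -log10 q-values. The H3K27me3 lists were cut at a p-value and the others to a q-value of 0.05. From the deposited peaks on 21 chromosomes, overlaps with GENCODE M21 (55413 genes) were counted from 1 bp, with Python 3.11.15, numpy 2.4.6 and scipy 1.17.1, and the figures were drawn with matplotlib 3.10.9. Counting of overlaps was checked against simulated intervals. Depth is unknown, and counts are set beside the share of all protein-coding genes in place of a test.

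The network genes, the pathway lists and the marker lists were chosen with earlier results of these data known. Named are all 10 network genes, neighbours whose promoters bear on a result, every pathway gene without an open active promoter, and up to 3 per list with one, those of the highest H3K4me3 fold by the lower replicate, except that some of these genes are not reported here. The places and genes of narrow ATAC-seq peaks, gaps and inner starts were chosen after their values were seen. The other samples of the study were not analysed here.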

Additional observations from a re-analysis of the deposited data

How the results depend on the processing

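No paired analysis was possible because the results come from no test. Of the 66 alternative counts, 59 stayed within 1.5 times the reported value. The counts of network genes with ATAC-seq, H3K4me3 and H3K27me3 at the promoter were 10, 10 and 0 under every alternative run. Those of H3K27ac and of open active promoters were 8, except 10 without replicate 2, when *Mycn* and *Mycl* joined. No promoter alternative widened the window or added peaks. The 0 for H3K27me3 could thus not change, and with both replicates kept the 8 for H3K27ac could not rise. Open active pathway genes numbered 39 when only the outermost start was used, as *Ldha*, *Ruvbl2* and *Skp2* then lacked one, and 42 under all other alternatives. The 4 distal H3K27ac peaks became 0 with 10 kb either side, 9 with 100 kb and 1 with a -log10 q of at least 5, and ranged from 6 to 9 when all peaks of a single replicate were counted, the 6 being without replicate 1 and the 9 without replicate 2. They were 3, around 2 genes, when at least 50% of the narrower peak had to be shared, which drops the peak near *Mycn*. The 57 distal ATAC-seq peaks became 13 with 10 kb and 102 with 100 kb, and ranged from 54 without replicate 1 to 91 without replicate 2. They were 70 when only peaks within 1 kb of any start were left out. The 70 and the 102 lay around all 10 genes, so that *Mxd3* was then no exception. With both replicates kept, 59 of 60 alternative mean folds (1 kb either side, or the outermost start alone) stayed within 1 SD of the replicates or did not change. The latter holds for H3K27ac of *Mycn* and *Mycl*, which rests on replicate 1 alone and has no SD. The ATAC-seq fold of *Mxi1* moved to 7.66 with the outermost start alone, since its highest peak lies at the inner starts. Leaving out a replicate of 2 cannot move a mean by more than its SD and is no check of a fold, and the mean H3K27ac fold of *Mnt*, 18.5, became 10.9 without replicate 1 and 26.1 without replicate 2. Only 2 replicates per feature and the unknown depth limit how closely the order of the genes can be read.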
